A study of Mus musculus with 15 samples.

Results

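*Fgf5*, *Otx2*, *Zic2*, *Zic5*, *Foxd3* and *Grhl2*, 6 of the 48709 genes counted, were followed through loss of OCT4 in mouse embryonic stem cells (ESCs). They were taken by name as genes of the formative and primed epiblast. OCT4 is the transcription factor encoded by *Pou5f1*. RNA sequencing gave 15 libraries from 2 lines, each sampled at 5 times. CreER ESCs (Oct4Fl/-, CAG CreER, mixed 129SV C57BL/6) have *Pou5f1* as 1 floxed and 1 null allele and received 500 nM 4-OHT, which activates Cre, for 0, 12, 18, 24 or 36 h, with 2 libraries at each time. O4AID ESCs (ZHBT, Oct4-/-, TetOFF Oct4, CAG Oct4AID, CAG Tir1, 129SV) received 500 µM of the auxin IAA for 0, 1.5, 6, 10 or 24 h, with 1 library at each time. Doxycycline at 1 µg/ml kept their wild-type *Oct4* transgene silent at every time, so these cells lived on an OCT4 protein fused to an auxin-inducible degron, driven by the constitutive CAG promoter, which IAA removes as protein and not as mRNA. Both lines grew in N2B27 with the inhibitors PD03 and Chiron and with LIF, without feeder cells. No label says that the 2 libraries of a CreER time came from separate cultures, so p-values measure only the spread between these libraries. Neither line has a library kept untreated for the same hours. Time in culture and the agent itself therefore cannot be told apart from loss of OCT4 in either course.

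This medium is used to hold ESCs in the naive state of the early epiblast. On their way to differentiation epiblast cells pass through a formative and then a primed state, in which naive genes are silenced and another set of regulators is switched on. *Fgf5* encodes a secreted FGF ligand and is a classical marker of that transition, and *Otx2* encodes a homeodomain factor that drives it and later patterns the forebrain. *Zic2* and *Zic5* encode zinc finger factors of the ZIC family, *Foxd3* a forkhead factor that binds enhancers during the exit from the naive state, and *Grhl2* a grainyhead factor that acts on enhancers of epithelial genes.

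All 6 genes were lower after 36 h of 4-OHT than before it, by 0.37 (*Grhl2*) to 1.70 (*Foxd3*) on the log2 scale. They reached that point along different courses. *Foxd3*, *Zic2*, *Zic5* and *Otx2* were lower in each library from 12 h onward, *Grhl2* stayed within 0.16 of its starting level on the log2 scale until 24 h, and *Fgf5* was higher at 24 h before it fell. In O4AID, *Foxd3*, *Zic5*, *Zic2* and *Otx2* were lower at each time after IAA, *Grhl2* was first higher and then lower, and *Fgf5* was at or near 0 reads throughout.

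On GRCm38/mm10, with the Ensembl models of the count tables, *Fgf5* (ENSMUSG00000029337) lies on the plus strand at chr5:98254184-98277030 and *Foxd3* (ENSMUSG00000067261) on the plus strand at chr4:99656299-99658622, in a single exon. *Otx2* (ENSMUSG00000021848) lies on the minus strand at chr14:48657679-48667644 and *Grhl2* (ENSMUSG00000022286) on the plus strand at chr15:37233036-37363569. *Zic5* (ENSMUSG00000041703, minus strand, chr14:122456795-122465677) and *Zic2* (ENSMUSG00000061524, plus strand, chr14:122475435-122479852) are neighbours that point away from each other, with 9757 bases between them. The strand setting of the counting is not given in the sources used here, so reads of *Grhl2* and of its overlapping antisense models *Gm16136* and *Gm16138* cannot be told apart. Those models held at most 54 reads in a library.

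The RefSeq promoter table of build GRCm38.p6 matched 4 of the 6 genes, with 4 starts for *Otx2*, and had no entry for *Zic2* and *Grhl2*. The 250 bases before the start are shown, on the strand of the gene, so that what lies in front of each gene can be compared. Capitals mark letters that match any of 8 motifs searched on both strands.
Fgf5 promoter (chr5:98253934-98254183, plus strand): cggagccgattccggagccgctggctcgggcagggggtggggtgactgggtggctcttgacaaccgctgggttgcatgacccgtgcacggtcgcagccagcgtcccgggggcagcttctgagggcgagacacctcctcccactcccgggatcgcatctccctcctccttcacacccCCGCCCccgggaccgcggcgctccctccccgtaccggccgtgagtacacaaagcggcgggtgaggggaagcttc
Otx2 promoter, most upstream start (chr14:48667645-48667894, minus strand): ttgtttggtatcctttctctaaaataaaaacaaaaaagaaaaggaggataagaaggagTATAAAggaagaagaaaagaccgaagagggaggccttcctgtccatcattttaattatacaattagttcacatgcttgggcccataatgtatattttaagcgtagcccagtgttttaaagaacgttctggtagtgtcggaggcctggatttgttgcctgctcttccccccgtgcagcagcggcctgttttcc
Zic5 promoter (chr14:122465659-122465908, minus strand): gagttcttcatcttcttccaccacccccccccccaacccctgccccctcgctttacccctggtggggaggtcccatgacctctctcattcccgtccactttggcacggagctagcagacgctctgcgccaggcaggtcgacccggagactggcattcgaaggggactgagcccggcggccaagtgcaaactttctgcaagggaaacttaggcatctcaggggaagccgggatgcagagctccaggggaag
Foxd3 promoter (chr4:99656049-99656298, plus strand): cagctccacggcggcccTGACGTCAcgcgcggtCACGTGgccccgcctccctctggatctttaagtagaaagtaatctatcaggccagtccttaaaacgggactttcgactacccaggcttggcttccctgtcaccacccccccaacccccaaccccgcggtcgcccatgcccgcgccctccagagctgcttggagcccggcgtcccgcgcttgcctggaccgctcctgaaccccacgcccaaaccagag

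The 4 stretches differ in composition. Guanine and cytosine made up 70.8% of the bases in front of *Fgf5*, 65.6% for *Foxd3*, 62.4% for *Zic5* and 42% for the most upstream *Otx2* start. The *Foxd3* stretch holds a CRE (TGACGTCA) 226 to 233 bases before the start and an E-box (CACGTG) at 212 to 217 bases, letters that 1.55% and 6.02% of the 32851 promoters in the table hold. That of *Fgf5* holds a GC box (GGGCGG, here as CCGCCC) at 69 to 74 bases, in 32.7% of promoters, and that of *Otx2* a TATA box (TATAAA) at 187 to 192 bases, in 12.4%. The octamer ATGCAAAT (1.6% of promoters) and a grainyhead site AACCGGTT (0.116%) are in none of the 4, nor in front of the other *Otx2* starts, and none of the 8 motifs is in that of *Zic5*. The other 2 motifs, an OTX site (TAATCC, in 6.25% of promoters) and a CCAAT box (CCAAT, in 33.8%), each match once, in front of other *Otx2* starts. Percentages were counted in windows of the same 250 bases, and a match is a description of the letters alone.

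*Pou5f1* mRNA, the check of the labels, fell in CreER from 330 and 326 CPM (reads scaled to a common library size, with TMM factors within a line) at 0 h to 115 and 127 CPM at 36 h. In O4AID, where IAA acts on the protein, it stood between 601 and 816 CPM. Depth was 21.7 to 30.8 M reads a library for CreER, against 40.5 to 48.7 M for O4AID. The summed level of 8 ESC markers, *Pou5f1* among them, was 2576 to 2611 CPM in untreated CreER and 6408 CPM in untreated O4AID. The median log2 change of all genes tested in CreER lay between -0.0003 and 0.013 at the 4 times.

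*Foxd3* had 14.1 and 12.8 CPM in replicates 1 and 2 of CreER at 0 h, 9.05 and 9.33 at 12 h, 5.82 and 6.56 at 18 h, 4.11 and 4.99 at 24 h and 4.04 and 4.16 at 36 h. Both libraries of each time from 12 h to 24 h lay under both libraries of the time before it, and the 24 h and 36 h libraries overlapped. Against 0 h the log2 fold change was -0.55 ± 0.102 (SE, n = 2 libraries a time; adjusted p = 0.00796 by the edgeR quasi-likelihood test) at 12 h, when no other of the 6 genes passed. It was -1.11 ± 0.109 (adjusted p = 1.06e-07) at 18 h, -1.57 ± 0.114 (adjusted p = 7.83e-11) at 24 h and -1.70 ± 0.123 (adjusted p = 1.02e-11) at 36 h. The step from 12 to 18 h was -0.56 ± 0.115 (adjusted p = 0.00841) and that from 24 to 36 h -0.13 ± 0.147 (adjusted p = 0.612), so *Foxd3* was the one gene of the 6 with no call in the last interval. The 12 h call was lost with DESeq2 (adjusted p = 0.075) and on leaving out replicate 1 (0.267) or replicate 2 (0.0904) of 12 h, over a range of 7.78e-05 to 0.267 in all 19 alternatives. The call from 12 to 18 h was lost without either library of 12 h (0.0892 and 0.12) or without replicate 1 of 18 h (0.19).

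*Zic2* had 19.4 and 17.4 CPM in CreER at 0 h, 13.7 and 14.8 at 12 h, 11.3 and 10.2 at 18 h, 8.94 and 9.72 at 24 h and 6.96 and 6.38 at 36 h. Each pair of libraries lay under the pair before it. The log2 fold change against 0 h was -0.36 ± 0.0869 (adjusted p = 0.0629) at 12 h, -0.77 ± 0.091 (adjusted p = 1.73e-06) at 18 h, -0.98 ± 0.0925 (adjusted p = 8.3e-09) at 24 h and -1.44 ± 0.103 (adjusted p = 7.86e-12) at 36 h. *Zic5*, its neighbour, stood at 33.0 and 34.3 CPM at 0 h, 26.2 and 28.3 at 12 h, 21.8 and 20.1 at 18 h, 15.6 and 15.9 at 24 h and 10.6 and 13.7 at 36 h. It also stepped down at each time with no overlap between consecutive pairs, to -0.31 ± 0.0758 (adjusted p = 0.0688) at 12 h, -0.68 ± 0.0785 (adjusted p = 1.13e-06) at 18 h, -1.10 ± 0.0813 (adjusted p = 1e-10) at 24 h and -1.47 ± 0.0883 (adjusted p = 2.49e-13) at 36 h. *Zic5* was the only one of the 6 genes with a call in each of the 3 intervals after 12 h, of which that from 18 to 24 h (-0.41 ± 0.0863, adjusted p = 0.009) was called for no other member. That call was lost without replicate 1 of 18 h (0.196) or without either library of 24 h (0.213 and 0.108). From 12 to 18 h the call of *Zic2* (-0.41 ± 0.0943, adjusted p = 0.0222) was lost with DESeq2 (0.111) and that of *Zic5* (-0.38 ± 0.0804, adjusted p = 0.0127) was not, and without any 1 library of 12 or 18 h adjusted p rose to between 0.0552 and 0.323 for the pair. From 24 to 36 h *Zic2* (-0.47 ± 0.114, adjusted p = 0.00547) was lost without replicate 2 of 24 h (0.0726) or of 36 h (0.0599), and *Zic5* (-0.38 ± 0.0972, adjusted p = 0.0085) without replicate 2 of 24 h (0.0718) or replicate 1 of 36 h (0.296). At 12 h both ZIC genes passed under total-count scaling (*Zic2* 0.0268, *Zic5* 0.0243), with no filter on low counts (0.00755 and 0.00262) and without either library of 36 h (0.0365 and 0.0368 for *Zic2*, 0.0154 and 0.0163 for *Zic5*), so the side of the threshold at 12 h depends on the setting.

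*Otx2* had 34.0 and 35.1 CPM in CreER at 0 h, 27.1 and 31.3 at 12 h, 27.1 and 28.0 at 18 h, 24.7 and 24.0 at 24 h and 15.7 and 15.4 at 36 h. All treated libraries lay under both untreated ones, with 12 h and 18 h overlapping and the largest gap between 24 h and 36 h. The log2 fold change was -0.25 ± 0.0671 (adjusted p = 0.113) at 12 h, -0.32 ± 0.0675 (adjusted p = 0.00251) at 18 h, -0.50 ± 0.0682 (adjusted p = 3.43e-06) at 24 h and -1.14 ± 0.0754 (adjusted p = 1.77e-12) at 36 h. The last interval alone gave -0.64 ± 0.0783 (adjusted p = 1.46e-06). At 18 h the call missed the threshold without replicate 1 of that time (0.0523), and at 12 h *Otx2* passed under total-count scaling (0.0426) and with no filter (0.0343).

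*Fgf5* took a course of its own. It had 7.42 and 6.79 CPM in CreER at 0 h, 6.35 and 6.52 at 12 h, 7.41 and 7.96 at 18 h, 8.78 and 10.1 at 24 h and 4.08 and 3.14 at 36 h. The 24 h libraries lay over all others and the 36 h libraries under all others. *Fgf5* was higher at 24 h by 0.41 ± 0.115 on the log2 scale (adjusted p = 0.0113), the only rise called among the 6 genes at any time, and at 36 h it stood at -0.95 ± 0.143 (adjusted p = 5.79e-06). From 24 to 36 h it fell by 1.35 ± 0.135 on the log2 scale (adjusted p = 4.99e-08), the largest step of any member between consecutive times. At 12 h (-0.14 ± 0.123, adjusted p = 0.806) and 18 h (0.12 ± 0.119, adjusted p = 0.594) it was not called. The rise at 24 h was lost with DESeq2 (0.0759) and on leaving out the second replicate of 0 h (0.111) or of 24 h (0.161), while the fall from 24 to 36 h was called in all 19 alternatives, with adjusted p up to 1.59e-05.

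*Grhl2* moved least. It had 67.5 and 64.7 CPM in CreER at 0 h, 63.5 and 66.3 at 12 h, 60.6 and 62.2 at 18 h, 61.7 and 56.6 at 24 h and 50.3 and 51.0 at 36 h. The 12 h libraries overlapped those of 0 h, and from 18 h on all libraries lay under both untreated ones. The log2 fold change was -0.02 ± 0.0522 (adjusted p = 0.945) at 12 h, -0.10 ± 0.0524 (adjusted p = 0.266) at 18 h, -0.16 ± 0.0524 (adjusted p = 0.0316) at 24 h and -0.37 ± 0.0543 (adjusted p = 3.48e-06) at 36 h. The call at 24 h was lost under total-count scaling (0.0923), with DESeq2 (0.0772), with only the 4 libraries compared (0.0546), and on leaving out replicate 1 of 0 h (0.159) or replicate 2 of 24 h (0.315). That from 24 to 36 h (-0.21 ± 0.0546, adjusted p = 0.00747) was lost without replicate 1 of 24 h (0.173).

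**Figure D1:**
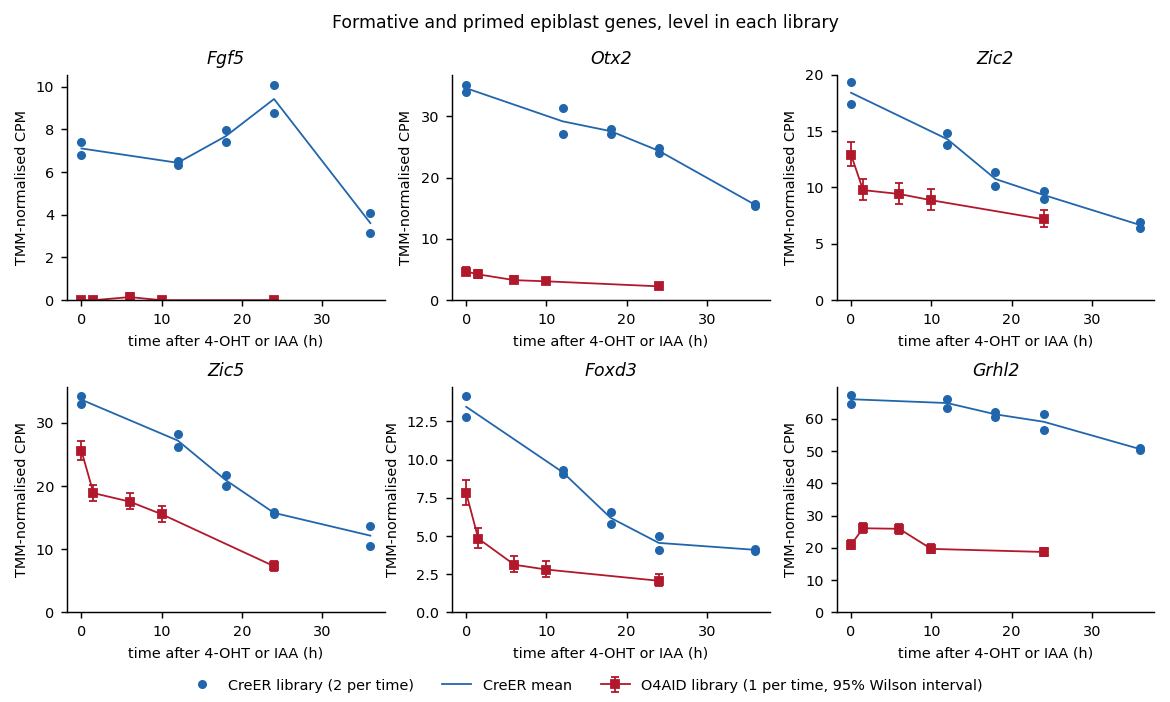
TMM-normalised CPM (vertical axis, from 0) of the 6 genes against hours after 4-OHT or IAA, with CreER libraries as blue points joined through their means and O4AID libraries as red squares with 95% Wilson intervals that cover counting error only. *Foxd3*, *Zic2*, *Zic5* and *Otx2* decline in both lines, *Fgf5* in CreER peaks at 24 h with 8.78 and 10.1 CPM, and *Fgf5* in O4AID lies at or near 0.

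Of the 6 genes, 1 was called lower at 12 h, against 0.137% of all 18969 genes tested. The count was 4 at 18 h (3.79% of all genes), 5 at 24 h, where 10.6% of all genes were called lower, and 6 at 36 h, where 17.2% were. The 1 member called higher, *Fgf5* at 24 h, compares with 11.0% of all genes called higher then. At 36 h *Foxd3*, *Zic5*, *Zic2* and *Otx2* were both called and at least 2-fold lower, which held for 1.6% of all genes. The median log2 fold change of the members was -0.28, -0.50, -0.74 and -1.29 at 12, 18, 24 and 36 h. Both treated libraries lay under both untreated ones for 5 members at 12 h (19.6% of all genes), and for 5, 5 and 6 members at the later times in order, against 25.5%, 28.1% and 32.4% of all genes. Over the intervals, 3 members were called lower from 12 to 18 h (0.511% of all genes), 1 from 18 to 24 h (0.606%) and 5 from 24 to 36 h (6.55%). The 4 comparisons with 0 h share the untreated libraries, and consecutive intervals share the libraries between them. The calls at 36 h held for all 6 genes in each of 19 alternatives, with adjusted p up to 0.000442 (*Fgf5*).

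In O4AID each time is 1 library, so the values compare those libraries and not the conditions, and the intervals given are 95% Wilson intervals of the shares of reads, which cover counting error only. *Foxd3* stood at 7.81, 4.84, 3.12, 2.81 and 2.07 CPM at 0, 1.5, 6, 10 and 24 h, lower at each time than at the one before. Its log2 ratio of CPM + 1 to 0 h was -0.59 (interval -0.80 to -0.39) after 1.5 h, -1.10 (-1.32 to -0.86) after 6 h, -1.21 (-1.44 to -0.97) after 10 h and -1.52 (-1.75 to -1.28) after 24 h. *Foxd3* had the lowest ratio of the group at 1.5, 6 and 10 h, and its step from 6 to 10 h (-0.11, interval -0.38 to 0.16) lay within counting error.

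*Zic2* stood at 12.9, 9.76, 9.42, 8.86 and 7.18 CPM and *Zic5* at 25.6, 18.9, 17.6, 15.6 and 7.32 CPM in the same order. The 2 neighbours moved side by side up to 10 h, with log2 ratios of -0.37 and -0.42 at 1.5 h, -0.42 and -0.52 at 6 h, and -0.50 and -0.68 at 10 h. At 24 h they parted, *Zic2* at -0.77 (-0.94 to -0.60) and *Zic5* at -1.68 (-1.83 to -1.52). Between 10 and 24 h the log2 ratio was -0.99 (-1.16 to -0.82) for *Zic5* and -0.27 (-0.46 to -0.08) for *Zic2*. *Otx2* stood at 4.67, 4.21, 3.27, 3.08 and 2.26 CPM, with log2 ratios of -0.12 (-0.35 to 0.11), -0.41 (-0.65 to -0.17), -0.48 (-0.72 to -0.23) and -0.80 (-1.04 to -0.55). It started from 219 reads, and its interval included 0 at 1.5 h alone.

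*Grhl2* went the other way at first, with 21.0, 26.1, 25.9, 19.7 and 18.8 CPM at 0, 1.5, 6, 10 and 24 h. Its log2 ratio was 0.30 (0.18 to 0.42) after 1.5 h, 0.29 (0.17 to 0.41) after 6 h, -0.09 (-0.22 to 0.04) after 10 h and -0.16 (-0.28 to -0.03) after 24 h. *Fgf5* had 0 reads at 0, 1.5, 10 and 24 h and 6 reads at 6 h, so no ratio is given for it. The count of members past 2-fold lower was 0 of the 5 with a read at 1.5 h (0.0399% of the 27596 genes compared), 1 of 6 after 6 h (0.33%), 1 of 5 after 10 h (0.622%) and 2 of 5 after 24 h (1.78%). The median log2 ratio of the members was -0.37, -0.41, -0.50 and -0.80, where that of all genes lay between -0.0025 and 0.0043, and the one at 6 h includes *Fgf5*.

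**Figure D2:**
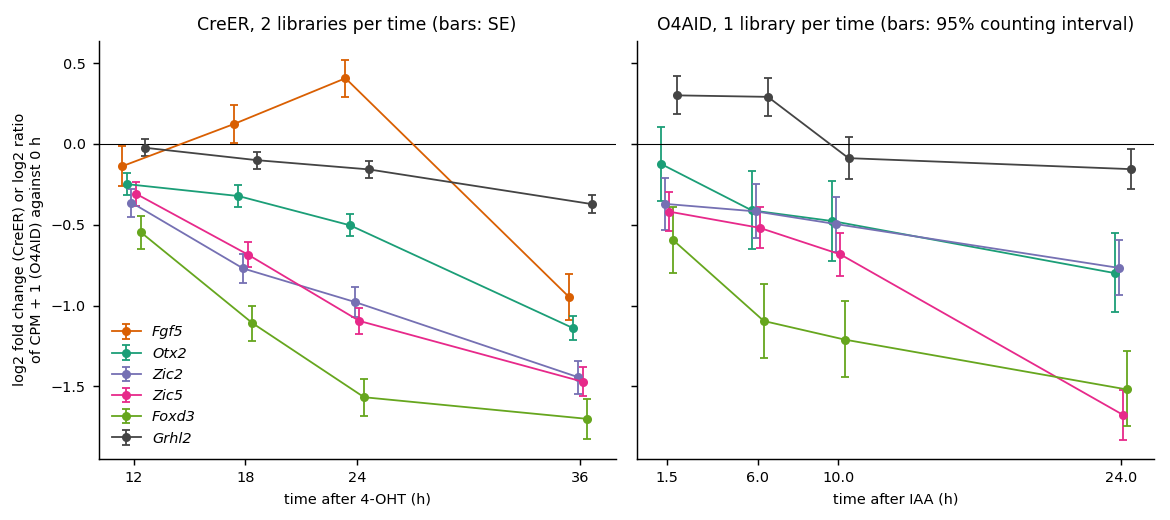
Log2 fold change from the edgeR fit in CreER (left, bars are the SE) and log2 ratio of CPM + 1 in O4AID (right, bars are 95% counting intervals) against hours of treatment, each relative to 0 h and drawn with small shifts along the time axis so that bars do not cover each other. At 24 h *Foxd3* is at -1.57 in CreER and -1.52 in O4AID, *Grhl2* is highest in O4AID at every time, and *Fgf5* is drawn for CreER only.

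At 24 h, the one time of treatment that both lines share, the change against 0 h was -1.57 in CreER and -1.52 in O4AID for *Foxd3*, -1.10 and -1.68 for *Zic5*, -0.98 and -0.77 for *Zic2*, -0.50 and -0.80 for *Otx2*, and -0.16 and -0.16 for *Grhl2*. The CreER values are fitted fold changes and the O4AID values are ratios with a pseudocount, which understates changes of low genes. Differences between the lines were not tested, since O4AID has 1 library a time and the lines differ in strain, genotype, agent, doxycycline and the route by which OCT4 is lost.

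The ratio of *Zic5* to *Zic2* reads shows where the pair parted. In CreER it was 1.71 and 1.97 in the 0 h libraries, 1.91 and 1.91 at 12 h, 1.92 and 1.98 at 18 h, 1.75 and 1.64 at 24 h and 1.52 and 2.15 at 36 h. The 36 h pair thus spans the whole range of the other 8 libraries. In O4AID it was 1.98 (interval 1.80 to 2.19), 1.94, 1.86 and 1.76 (1.54 to 2.00) up to 10 h, and 1.02 (0.880 to 1.18) at 24 h. Lengths and depth cancel in this ratio between libraries, so the change at 24 h does not rest on the scaling.

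**Figure D3:**
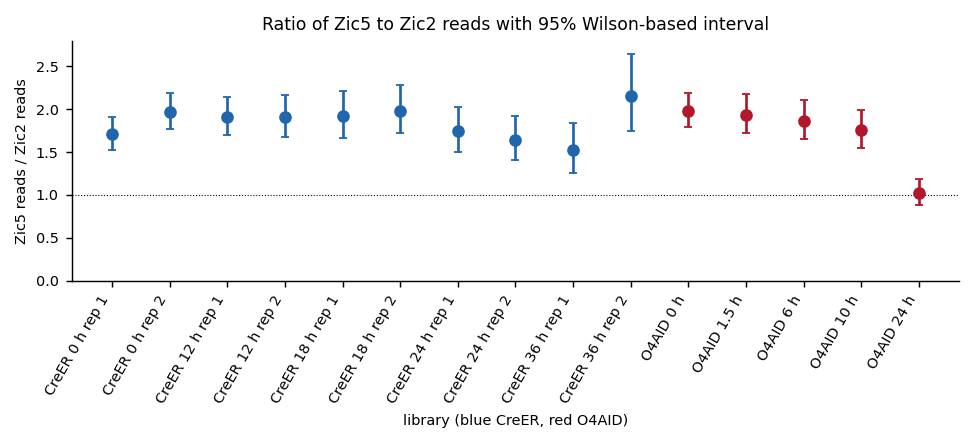
Ratio of *Zic5* to *Zic2* read counts (vertical axis, no unit) in each of the 15 libraries (horizontal axis), with 95% intervals from Wilson intervals of the share and a dotted line at a ratio of 1. The 10 CreER libraries lie between 1.52 and 2.15 and the O4AID library at 24 h lies at 1.02.

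Of the 6 genes, *Fgf5* and *Otx2* differed most between the untreated lines. With TMM over the 3 untreated libraries, *Fgf5* had 7.18 and 6.56 CPM in CreER and 0 in O4AID, at least 101.6-fold lower against a floor of 3 reads (0.0677 CPM). *Otx2* had 32.9 and 33.9 CPM in CreER and 4.94 in O4AID, 6.77-fold lower, and *Grhl2* 65.3, 62.6 and 22.2 CPM, 2.88-fold lower. *Foxd3* (13.7, 12.3 and 8.25 CPM), *Zic2* (18.8, 16.8 and 13.6) and *Zic5* (32.0, 33.2 and 27.0) were nearer, 1.58-fold, 1.30-fold and 1.21-fold lower in O4AID. All 6 were thus lower in the O4AID library than in both CreER libraries, 3 of them past 2-fold on the log2 scale of CPM + 1, as were 9.14% of all genes (9.98% were past it in the other direction). Of genes with a mean of at least 50 reads over the 3 untreated libraries, the 479 on chromosome 14, which carries *Otx2*, *Zic2* and *Zic5*, had a median log2 ratio of -0.25, against 0.17 for the 13570 on other chromosomes. Strain, genotype, doxycycline (given to O4AID alone) and library cannot be told apart in this comparison, and neither can fewer cells that express a gene and less RNA of it in each cell, here and in every other result from these bulk samples.

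**Figure D4:**
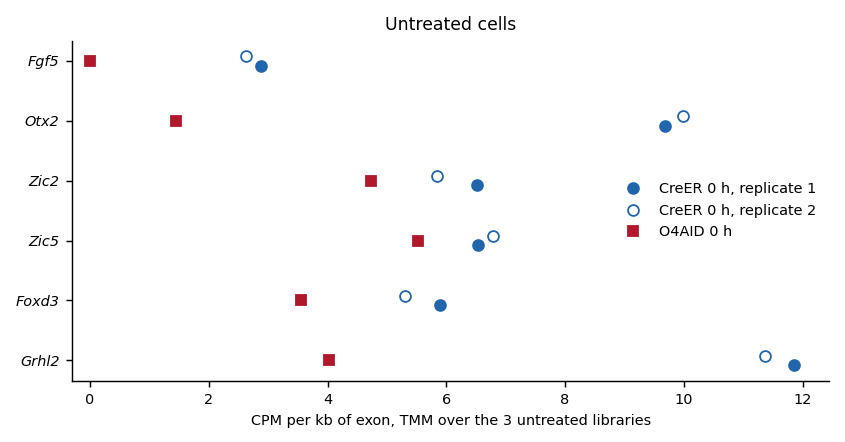
Level of the 6 genes in CPM per kb of exon (horizontal axis) in the 2 untreated CreER libraries (circles) and the untreated O4AID library (squares). *Fgf5*, *Otx2* and *Grhl2* lie farthest apart between the lines, and *Zic2* and *Zic5* lie nearest.

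Per kb of exon the order in untreated CreER was *Grhl2* (12.3 and 11.8 CPM per kb), *Otx2* (10.0 and 10.3), *Zic5* (6.76 and 7.02), *Zic2* (6.72 and 6.05), *Foxd3* (6.09 and 5.50) and *Fgf5* (2.97 and 2.72). *Zic2* and *Foxd3* overlapped in that order and the other neighbours did not. At 24 h *Fgf5* (3.51 and 4.02) had moved over *Zic5* (3.19 and 3.26) and *Zic2* (3.10 and 3.37), and *Foxd3* (1.77 and 2.15) was last. At 36 h *Fgf5* (1.63 and 1.26) was last again. In untreated O4AID *Zic5* (5.24 CPM per kb) and *Zic2* (4.48) led, followed by *Grhl2* (3.82), *Foxd3* (3.36), *Otx2* (1.38) and *Fgf5* (0). *Grhl2* led at 1.5, 6, 10 and 24 h.

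A wider list of 13 formative and primed genes, among them de novo DNA methyltransferases (*Dnmt3a*, *Dnmt3b*), the WNT effector *Lef1*, the POU factor *Pou3f1* and the ligand *Nodal*, was mostly lower in CreER at 36 h and mixed in O4AID at 24 h. Of its 12 genes tested in CreER, 0, 5, 6 and 10 were called lower at 12, 18, 24 and 36 h by edgeR. The shares of all genes called lower were 0.137%, 3.79%, 10.6% and 17.2%. In the same fit 1 of the 12, *Cdh2* at 36 h (0.27 ± 0.0849, adjusted p = 0.0119), was called higher, as were 19.4% of all genes. At 12 h 4 of them had an unadjusted p under 0.05 and DESeq2 and limma-voom also called 0. Medians were -0.08, -0.17, -0.21 and -0.54. At 36 h *Lef1* was at -1.83 ± 0.104 (adjusted p = 1.3e-13), the kinase gene *Pim2* at -1.53 ± 0.0727 (adjusted p = 2.06e-15), *Dnmt3a* at -0.80 ± 0.0472 (adjusted p = 1.98e-13) and *Pou3f1* at -0.61 ± 0.0841 (adjusted p = 1.63e-06). *Sox4* (0.10 ± 0.0997, adjusted p = 0.483) was the one gene not called then, and *Fgf8* held 4 to 12 reads a CreER library and was not tested. In O4AID at 24 h the list had 1 gene past 2-fold lower, *Nodal* at -1.11, against 1.78% of all genes. It had 1 gene past 2-fold higher, *Lef1* at 1.27 (1.00 to 1.52), against 2.42% of all genes. The median was 0.03, with 6 genes under 0 and 7 over it. At 0 h the list summed to 1180 to 1190 CPM in CreER and 275 CPM in O4AID, so the 2 courses started from different levels.

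**Figure D5:**
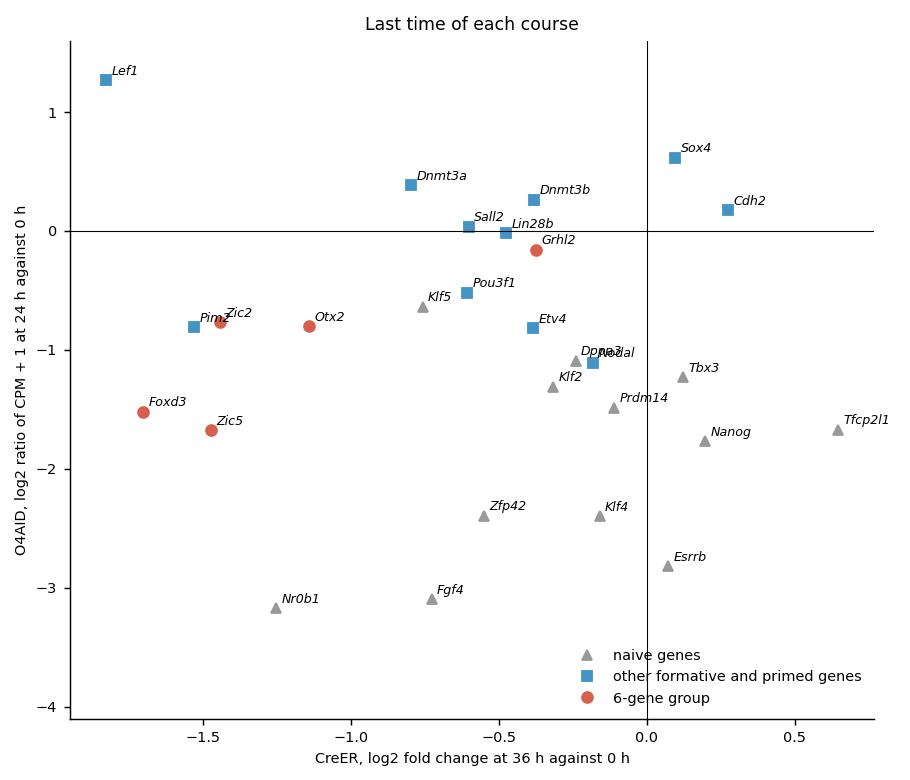
Log2 ratio in O4AID at 24 h (vertical axis) against the fitted log2 fold change in CreER at 36 h (horizontal axis) for 5 of the 6 members (circles), other formative and primed genes (squares) and naive genes (triangles). The 5 members lie at the lower left, *Lef1* at -1.83 and 1.27 lies in the upper left, and *Fgf5*, *Sox3* and untested *Fgf8* are left out for low reads.

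The naive list of 12 genes had 7 called lower (17.2% of all genes) and 2 called higher (19.4% of all genes) in CreER at 36 h, with a median of -0.20. At 0 h it summed to 1793 to 1825 CPM in CreER and 4877 CPM in O4AID. In O4AID it had 0, 7, 9 and 11 genes past 2-fold lower at 1.5, 6, 10 and 24 h (median -1.72 at 24 h), against 0.0399%, 0.33%, 0.622% and 1.78% of all genes. *Klf4* was at -0.16 ± 0.0563 (adjusted p = 0.0275) in CreER at 36 h and at -2.40 (-2.48 to -2.32) in O4AID at 24 h, and *Esrrb* at 0.07 ± 0.0472 (adjusted p = 0.251) and -2.82 (-2.86 to -2.78). Other naive genes moved more in CreER. From 0 to 36 h *Nr0b1* went from 25.3 and 25.9 to 10.3 and 11.1 CPM, and *Tfcp2l1* from 211 and 218 to 347 and 319 CPM. In O4AID at 24 h they were at -3.17 and -1.67 in order. Of 8 primitive streak genes, 5 were tested in CreER and 2 were called in each direction at 36 h, with *Eomes* at 1.69 ± 0.0825 (adjusted p = 3.21e-15) and *Mixl1* at -1.03 ± 0.387 (adjusted p = 0.0381). *Eomes* is also a gene of the trophoblast, and 9 of 9 trophectoderm markers were called higher at the same time. None of the 8 was past 2-fold in O4AID at any time. At 24 h 1.78% of all genes were past it lower and 2.42% higher. With a pseudocount of 1 a gene that stays under 1 CPM cannot pass, and 3 of the 8 had 0 reads at 0 h. *Foxa2* went from 6 reads at 0 h to 25 at 24 h, a log2 ratio of 0.43 (0.18 to 0.66). The count therefore says little about the low genes of this list.

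Relatives of the members gave mixed values. *Zic1* (3 to 14 reads a CreER library, 36 h -0.82 ± 0.604, adjusted p = 0.32) did not pass and *Zic4* held at most 3 reads there and was not tested. In O4AID *Zic1* went from 7 reads at 0 h to 30 at 24 h, a log2 ratio of 0.50 (0.24 to 0.74). In the grainyhead family *Grhl3* rose to 1.04 ± 0.0602 (adjusted p = 1.3e-13) at 36 h, where *Grhl2* fell, and *Grhl1* stood at -0.10 ± 0.0962 (adjusted p = 0.471). In O4AID *Grhl3* was at 0.87 (0.77 to 0.97) at 10 h and 0.42 (0.32 to 0.52) at 24 h. *Foxd1*, *Foxd2* and *Foxd4* held at most 6 reads a CreER library, and *Otx1* and *Crx* at most 11, so *Foxd3* and *Otx2* were the only members of their families tested. *Otx1* in O4AID had 67 reads at 0 h and 62 at 24 h, a log2 ratio of -0.09 (-0.37 to 0.20).

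Among FGF ligands tested in CreER, 4 of 5 were called lower at 36 h, against 17.2% of all genes. *Fgf15* was at -1.78 ± 0.167 (adjusted p = 1.82e-09), *Fgf17* at -0.80 ± 0.103 (adjusted p = 4.83e-07) and *Fgf4*, the autocrine ligand of ESCs, at -0.73 ± 0.0442 (adjusted p = 3.21e-13), beside *Fgf5*. At 24 h *Fgf4* (-0.60 ± 0.0432, adjusted p = 6.11e-11) was lower while *Fgf5* was higher. In O4AID at 24 h *Fgf4* was at -3.10 (-3.18 to -3.02) and *Fgf3* at -1.25 (-1.48 to -1.01).

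Of 7 epithelial genes of the kind that GRHL2 acts on, 3 were called higher and 2 lower in CreER at 36 h, against 19.4% and 17.2% of all genes. The claudin genes *Cldn4* (1.19 ± 0.0505, adjusted p = 2.3e-16) and *Cldn6* (0.41 ± 0.0485, adjusted p = 1.18e-07) rose, and *Rab25* (-0.67 ± 0.109, adjusted p = 1.54e-05) fell. In O4AID at 24 h 2 of the 7 were past 2-fold higher and 0 lower, against 2.42% and 1.78% of all genes. *Cldn4* was at 1.23 (1.15 to 1.31) and *Cldn6* at 2.40 (2.24 to 2.55). The 2 of the 7 under 0 were *Rab25* at -0.80 (-1.03 to -0.54), from 43 to 5 reads, and *Cdh1* at -0.30 (-0.33 to -0.26). *Esrp1*, a splicing regulator of epithelial cells, had 2254 and 2708 reads in untreated CreER and 2 in untreated O4AID, a larger gap than that of *Grhl2* between the same libraries.

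Noncoding neighbours of the members were read at low counts. *Gm12688*, on the opposite strand 1316 bases from *Foxd3*, had 31 and 53 reads in CreER at 0 h and 5 and 7 at 36 h (-2.52 ± 0.387, adjusted p = 7.58e-06). In O4AID it had 38 reads at 0 h and 49 at 24 h, where *Foxd3* went from 366 to 100. *2610035F20Rik*, on the opposite strand 236 bases from *Zic2*, had 29 and 35 reads in CreER at 0 h and 10 and 10 at 36 h (-1.40 ± 0.387, adjusted p = 0.00509). In O4AID it had 20, 7, 11, 29 and 26 reads in order of time, where *Zic2* went from 605 at 0 h to 346 at 24 h. *Otx2os1* beside *Otx2* held 3 to 13 reads in CreER and at most 1 in O4AID.

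*Foxd3*, *Otx2*, *Zic2*, *Zic5* and *Grhl2* also mark other cells, so the marker lists of those cells stand beside them. Trophectoderm markers rose, 9 of 9 in CreER at 36 h, among them *Cdx2* (2.43 ± 0.141, adjusted p = 1.24e-13), from a summed 331 to 341 CPM at 0 h to 652 to 691 CPM, and from 104 to 163 CPM in O4AID. Neuroectoderm markers summed to 73.8 to 77.6 CPM at 0 h and 62.7 to 64.5 CPM at 36 h in CreER and to 51.8 and 70.4 CPM at 0 and 24 h in O4AID, with 1 of the 4 genes tested higher and 2 lower at 36 h. Neural crest markers, which *Foxd3* often accompanies, summed to 3.26 to 4.05 CPM at 0 h and 4.20 to 4.74 CPM at 36 h in CreER and to 4.21 and 3.92 CPM in O4AID. None of the 5 was at 0 reads, and 2 of the 5 were called higher and 0 lower in CreER at 36 h. Primitive endoderm markers went from 14.9 to 17.0 CPM to 37.2 to 37.9 CPM in CreER and from 10.1 to 43.4 CPM in O4AID, with 2 of the 6 tested higher at 36 h and 1 lower. Fibroblast markers summed to at most 7.54 CPM in those libraries, with 1 of the 3 tested higher and *Dcn* at 0 reads in every O4AID library. ESC markers summed to 2270 to 2338 CPM in CreER at 36 h, with 5 of 8 lower and 2 higher, and to 2094 CPM in O4AID at 24 h. The 8 include *Pou5f1*, which 4-OHT deletes in CreER and a transgene supplies in O4AID, so its share follows from the design. It had 330 and 326 CPM at 0 h and 115 and 127 CPM at 36 h in CreER. In O4AID it had 717 and 601 CPM at 0 and 24 h. Of all genes tested in CreER, 19.4% were called higher and 17.2% lower at 36 h. The part of any of these cells in the levels of the members was not tested.

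Members other than *Fgf5* followed each other in CreER, with r of 0.806 (*Foxd3* and *Grhl2*) to 0.966 between pairs. Over the 10 CreER libraries Pearson's r of log2(CPM + 1) was 0.966 for *Zic2* and *Zic5*, 0.960 for *Zic2* and *Foxd3* and 0.964 for *Otx2* and *Grhl2*, and between 0.249 and 0.688 for *Fgf5* with the others. These libraries share the time of treatment, so these values describe a shared course and carry no test. Over the 5 O4AID libraries r was 0.86 to 0.96 between pairs of *Foxd3*, *Otx2*, *Zic2* and *Zic5*. *Grhl2* had 0.30 to 0.51 with them there, also without a test. Of 11967 genes tested in CreER with a mean of at least 50 reads in the libraries of each line, those most like each member over the 15 libraries, each line centred on its own mean, were *Pim2* (r = 0.975) for *Zic2*, *Zfp979* (0.976) for *Zic5*, *Zbtb8a* (0.973) for *Otx2*, *Ppp2r2d* (0.971) for *Foxd3* and *Dnajc27* (0.957) for *Grhl2*. *Plekha5* (0.871) was nearest to *Fgf5*, which had no gene over 0.9 by this measure. Their r was 0.944 over the CreER libraries and -0.896 over the O4AID libraries. The course of *Fgf5* in O4AID rests on a single library with 6 reads.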

How the data were processed

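Per the labels and the methods of the study, the authors made directional libraries from RNA depleted of ribosomal RNA, sequenced both ends, trimmed reads with Trim Galore 0.1.4, aligned them to GRCm38/mm10 with TopHat2 2.1.0 and counted them with featureCounts 1.5.1 on an Ensembl annotation. Strand and multimapping settings are not given in the sources used here. Each deposited file holds unnormalised counts of reads for the genes of 1 library. The 92 spike-in entries, with 0 reads, were left out. A deposited table of TMM-normalised values was not used here.

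The test in CreER was the quasi-likelihood test of edgeR 4.0.16 in R 4.3.3 (TMM, filterByExpr, robust, prior count 0.125) over all 10 libraries without a replicate term, with Benjamini-Hochberg adjustment over 18969 genes and a call at an adjusted p under 0.05. The code recovered known changes in simulated counts. Fold changes carry the SE of the fit. O4AID, at 1 library a time, has no test: ratios are of TMM CPM plus a pseudocount of 1, with 95% Wilson intervals (SciPy 1.17.1), and past 2-fold means a log2 ratio of at least 1 in size. The NOISeq-sim procedure named in the study simulates replicates and was not used. Reads carry no molecular identifiers, so intervals and floors cover counting error only. Between CreER replicates chi-square per degree of freedom was 3.02 to 7.00, so they were counted as separate libraries. Deviations of libraries with the same replicate number correlated between -0.0209 and 0.0501 over 10 pairs of times, so the numbers did not pair the libraries.

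Named were *Pou5f1*, the 6 genes, a list of 13 other formative and primed genes, 8 primitive streak and 12 naive genes, the members' families, 7 epithelial genes, genes within 20 kb of a member, marker lists of 6 cell types, and the 3 genes with the highest r to each member, of which the first is given. The members and lists were chosen with earlier results of these data known. The list of primitive streak genes holds a gene whose values are not reported here, and 1 gene was taken out of the formative and primed list and is not reported here. Alternatives were RLE factors, total-count scaling, other filters, DESeq2 1.42.0, limma-voom (limma 3.58.1), the 4 libraries compared alone, a replicate block, prior count 2, leaving out each CreER library, and for ratios pseudocounts 0.1 and 5, other scalings and the 1.5 h reference.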

Additional observations from a re-analysis of the deposited data

Results flagged for a closer look

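For 3 genes of the wider formative list, every CreER library moved one way at 24 h and the O4AID library moved the other way. The difference between the lines was not tested, since O4AID has 1 library. *Dnmt3a* stood at a log2 ratio of 0.39 (0.31 to 0.46) in O4AID and at a log2 fold change of -0.36 ± 0.0459 (adjusted p = 1.37e-06, edgeR) in CreER. *Dnmt3b* stood at 0.26 (0.21 to 0.32) in O4AID and at -0.31 ± 0.0380 (adjusted p = 8.28e-07) in CreER. *Lef1*, the WNT effector, stood at 1.27 (1.00 to 1.52) in O4AID, where it went from 55 to 204 reads, and at -1.05 ± 0.0907 (adjusted p = 2.03e-09) in CreER, where it went from 657 and 747 reads to 351 and 355. None of the 6 members was among them. Untreated O4AID held less of all 3, 3.65-fold for *Dnmt3a*, 5.79-fold for *Dnmt3b* and 20.2-fold for *Lef1* under the mean of untreated CreER.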

How the results depend on the processing

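Of 798 repeats of member values in CreER, 750 kept direction and side of the threshold, 32 lost a call, 11 gained one and 5 changed sign. None of the 5 was a call, and over the fits that left out 1 library the values were -0.05862 to 0.008504 for *Grhl2* at 12 h, -0.1803 to 0.0265 for *Otx2* from 12 to 18 h, -0.1162 to 0.0001963 for *Grhl2* from 18 to 24 h and -0.2812 to 0.007112 for *Foxd3* from 24 to 36 h. The values over 0 came without replicate 1 of 0 h or of 12 h, replicate 2 of 12 h, and replicate 2 of 24 h for the last pair. Members called at 12 h numbered 4 with total-count scaling, 4 with no filter, 0 with DESeq2 and 0 to 3 without 1 library. Without 1 library they numbered 0 to 3 from 12 to 18 h, 0 to 1 from 18 to 24 h and 3 to 5 from 24 to 36 h, and 2 from 18 to 24 h with the 4 libraries alone. All genes called numbered 222 (no filter) and 8 to 218 (without 1 library) against 75 at 12 h, 989 (DESeq2) and 582 to 2006 against 1616 at 18 h, and 2595 (DESeq2) and 2343 to 4509 against 4089 at 24 h. The wider list had 1 call at 12 h with no filter against 0, and at 18 h 3 to 5 without 1 library against 5, the 3 without replicate 2 of 0 h or of 18 h. The median of members without 1 library was -0.7727 to -0.712 at 24 h and -1.295 to -1.222 at 36 h, and at 36 h -1.302 with RLE factors, -1.376 with total counts, -1.303 with no filter, -1.304 with DESeq2 and -1.286 with prior count 2. The cause of these shifts was not tested.

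Total-count scaling moved the median of all genes from 24 to 36 h to -0.10. It changed the split of calls at 36 h from 3686 higher and 3262 lower to 2696 and 4802, and at 24 h from 2084 and 2005 to 2277 and 1437. With the replicate block, members called were 1, 4, 6 and 6 at 12, 18, 24 and 36 h and 3, 1 and 5 in the intervals, as without it, and all genes called were 89, 1677, 4139 and 6999. The block changed no call of a count, and the numbers only name libraries.

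In O4AID members past 2-fold in either direction numbered 2 at 6 h with pseudocount 0.1, *Foxd3* at -1.30 and *Fgf5* at 1.29, the latter from 6 reads against 0. With pseudocount 5 they numbered 0, 0 and 1 at 6, 10 and 24 h, with a median of -0.557 at 24 h, and against the 1.5 h library 0, 0 and 1, with a median of -0.0737 at 6 h. The log2 ratio of untreated O4AID to CreER was -6.12 and -1.25 for *Fgf5* with pseudocounts 0.1 and 5, -1.95 for *Otx2* and -1.34 for *Grhl2* with pseudocount 5, and -0.457 for *Zic5* and -1.68 for *Grhl2* with total counts. Low levels limit the precision, among them *Fgf5* at 3.14 to 10.1 CPM and *Foxd3* under 5 CPM at the last times in CreER and *Otx2* at 2.26 to 4.67 CPM in O4AID, and 1 library a time leaves the spread in O4AID unknown.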

Other observations

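Among neuroectoderm markers, which *Otx2* and the ZIC genes accompany in later development, *Pax6* and *Sox1* each went apart at the last times of the lines. Those times are 36 h in CreER and 24 h in O4AID. *Pax6* had 272 and 330 reads in CreER at 0 h and 77 and 78 at 36 h (-1.69 ± 0.129, adjusted p = 3.09e-11, edgeR), and in O4AID it had 169, 121, 185, 260 and 593 reads in order of time. *Sox1* went the other way in each line, with 80 and 101 reads at 0 h and 132 and 120 at 36 h in CreER (0.74 ± 0.150, adjusted p = 0.000267), and 396, 266, 243, 176 and 86 reads in order of time in O4AID. At 24 h, the time both lines share, *Sox1* in CreER had 2.74 and 3.53 CPM, which overlapped the 3.21 and 3.43 CPM of 0 h. *Pax6* had 5.48 and 5.92 CPM then, under the 10.9 and 11.2 CPM of 0 h. Whether the lines differ in either gene was not tested.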
